A study of Mus musculus with 4 samples.

Results

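Promoters of 41 genes of the interferon response and of antigen presentation were examined for H3K4me3, the trimethylated form of histone H3 at lysine 4, which marks active and poised promoters. The genes form a hand-chosen list, and 40 of them are among the 21938 protein-coding genes of the annotation. The other one, Mx2, is annotated as a polymorphic pseudogene and was kept as a member. By role the list holds 4 pathogen sensors and adaptors, 7 receptors and kinases, 10 transcription factors, 9 induced effectors, 7 genes of the major histocompatibility complex (MHC) class I pathway and 4 of the class II pathway. The mark was mapped by chromatin immunoprecipitation and sequencing in left cerebral cortex from 2-month-old females of B6CASTF1/J, the first-generation hybrid of C57BL/6J and CAST/EiJ. There were 2 pools, J and I, numbered biological replicates 1 and 2, and each pool combined 4 cortex samples and gave 2 technical replicate libraries. No treatment, infection or engineered allele is named in the labels for either pool, so the data describe cortex without an added interferon stimulus. A gene was called marked when a deposited peak met a window that reached 1000 bases to each side of one of its transcript starts, and its domain was its widest run of peaks at most 1000 bases apart.

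Interferons are secreted proteins released by cells that sense foreign nucleic acid. They bind cell surface receptors whose Janus kinases phosphorylate STAT proteins, and these, with interferon regulatory factors (IRF), bind interferon-stimulated response elements (ISRE) or gamma-activated sites (GAS) in promoters of antiviral effector genes and of genes for antigen presentation. Nearly all cell types can respond to type I interferon, whereas MHC class II molecules in healthy brain are largely restricted to microglia and to immune cells at its borders.

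Promoter sequences of effector and signalling members with an ISRE are shown first, because they set marked and unmarked effector promoters side by side. The motif searched was GAAANNGAAA, with N for any base, on both strands, in RefSeq promoters of the GRCm38.p6 assembly (the mm10 sequence) that run from 250 bases before to 50 bases after the start. Of the 41 members 31 had a promoter in that table, and Tmem173, Mx1, Mx2, Oas2, Usp18, Tap2, Nlrc5, H2-Ab1, Cd74 and Ciita had none. The motif was found in 9 of these 31 (Ifih1, Ddx58, Irf2, Stat2, Ifit1, Ifit3, Isg15, Rsad2 and B2m), and in 4.02% of the 16522 protein-coding genes with a promoter there (3.44% of all 32851 promoters). B2m, a class I gene, is not shown. Among the 5 effectors with a promoter, those of Ifit1, Ifit3, Isg15 and Rsad2 held it. Their last 160 bases before the start follow, 5′ to 3′ on the gene's strand, with ISRE matches in capitals. They lie at chr19:34640729-34640888 (plus strand) for Ifit1, chr19:34583369-34583528 (plus strand) for Ifit3, chr4:156200819-156200978 (minus strand) for Isg15 and chr12:26456453-26456612 (minus strand) for Rsad2.
Ifit1: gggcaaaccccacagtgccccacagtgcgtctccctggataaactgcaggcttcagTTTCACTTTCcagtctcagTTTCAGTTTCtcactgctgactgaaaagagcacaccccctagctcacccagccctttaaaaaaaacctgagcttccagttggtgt
Rsad2: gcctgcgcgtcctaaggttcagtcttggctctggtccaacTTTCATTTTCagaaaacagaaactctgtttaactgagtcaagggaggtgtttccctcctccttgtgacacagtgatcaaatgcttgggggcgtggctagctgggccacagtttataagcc
Ifit3: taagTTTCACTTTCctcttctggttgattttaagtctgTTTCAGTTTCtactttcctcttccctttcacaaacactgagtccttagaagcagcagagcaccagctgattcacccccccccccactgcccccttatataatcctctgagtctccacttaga
Isg15: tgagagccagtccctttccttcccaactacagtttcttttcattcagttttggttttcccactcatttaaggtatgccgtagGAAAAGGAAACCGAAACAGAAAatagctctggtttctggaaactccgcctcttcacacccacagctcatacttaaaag

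Ifit1 and Rsad2 were marked, and Ifit3 and Isg15 were not. Ifit1 had matches that begin 104 and 85 bases before the start, Ifit3 at 156 and 122 bases, and Rsad2 had a single match at 120 bases. In Isg15 the matches at 78, 72 and 66 bases overlapped in 1 run. The match letters of Ifit1 and Ifit3 were the same, TTTCACTTTC followed by TTTCAGTTTC. The motif was therefore present in this window both in promoters with a peak and in promoters without one.

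Signalling members with the motif were all marked. For the factors Irf2 and Stat2 the 250 bases before the start are shown, from chr8:46739495-46739744 (plus strand) for Irf2 and chr10:128270248-128270497 (plus strand) for Stat2. For the sensors Ddx58 and Ifih1, whose matches lie 2 and 32 bases after the start, 30 bases around the match are shown, from chr4:40239804-40239833 (minus strand) and chr2:62646206-62646235 (minus strand).
Irf2: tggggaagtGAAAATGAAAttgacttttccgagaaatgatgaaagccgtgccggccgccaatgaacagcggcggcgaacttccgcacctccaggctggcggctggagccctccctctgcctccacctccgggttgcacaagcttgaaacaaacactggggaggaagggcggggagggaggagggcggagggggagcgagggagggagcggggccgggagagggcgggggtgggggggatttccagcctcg
Stat2: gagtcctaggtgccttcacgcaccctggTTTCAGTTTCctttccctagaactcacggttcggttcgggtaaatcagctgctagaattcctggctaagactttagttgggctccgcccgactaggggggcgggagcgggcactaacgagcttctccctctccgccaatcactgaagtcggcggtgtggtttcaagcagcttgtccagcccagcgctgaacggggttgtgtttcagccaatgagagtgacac
Ddx58: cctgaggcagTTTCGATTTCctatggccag
Ifih1: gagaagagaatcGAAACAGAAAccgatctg

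The remaining effector with a promoter in the table, Ifit2, held no ISRE match there and was marked. It had a GAS match (TTCNNNGAA, found on either strand in 9.02% of protein-coding genes with a promoter and 8.30% of all promoters), which is in capitals in its 250 bases before the start, at chr19:34550444-34550693 (plus strand). This sequence was added after the values of the gene had been seen.
Ifit2: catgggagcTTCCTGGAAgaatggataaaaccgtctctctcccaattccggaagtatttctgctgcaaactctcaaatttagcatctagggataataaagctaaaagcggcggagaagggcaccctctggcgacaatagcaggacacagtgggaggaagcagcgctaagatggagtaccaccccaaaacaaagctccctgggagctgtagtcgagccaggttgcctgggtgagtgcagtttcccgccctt

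A GAS match was also found in the promoters of Ifnar1, Ifnar2, Irf1, Irf2 and Irf8, so that 6 of 31 members had one. Irf2 held both motifs.

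Of the 41 members 33 were marked in the replicated list, which draws on both pools, against 65.2% of all protein-coding genes. Genes for sensing and signalling were marked nearly throughout, as were class I genes, and the unmarked members were mostly effectors and class II genes. Marked were 20 of the 21 sensors, receptors, kinases and factors, 7 of 7 class I genes, 5 of 9 induced effectors and 1 of 4 class II genes. The same 33 members were marked in the pool J list (63.9% of all protein-coding genes) and in the pool I list (64.8%), and also in the list called on pooled reads (65.4%) and when −log10 q had to reach 5 (64%). Agreement of this kind is common in these lists, since 98.5% of all protein-coding genes had the same status in both pools. The list of pooled reads is no independent check, because 24595 of the 25446 peaks of the replicated list are also in it. In bulk tissue, fewer cells that carry the mark and less of the mark per cell cannot be told apart. The list is described here by counts and medians beside all genes, with no test, because the members were chosen by hand and each pool gave 1 list of peaks.

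Domain width and enrichment also differed by role. Enrichment is the authors' fold value for a peak and is given with its percentile among marked protein-coding genes of the same list. The 20 marked signalling genes had a median domain width of 1719.5 bases and a median enrichment percentile of 43.3, which combined 78.8 for receptors and kinases with 25.5 for transcription factors and 23.7 for sensors and adaptors. The 7 class I genes had a median of 1354 bases at percentile 36.3, and the 5 marked effectors 1081 bases at percentile 6.49. That effector percentile rests on few genes and was 15.4 without Mx2, 17.01 with windows of 2500 bases, 19.8 with unshared peaks and 23.9 when −log10 q had to reach 10. All marked protein-coding genes had a median of 2124 bases, with quartiles of 1537 and 2966 bases. In the replicated list 7 of the 33 marked members were wider than that median, all of them signalling genes. Irf3, at 2656 bases there, was below the median in pool J (2003 against 2026) and in pool I (2133 against 2193.5). Ifnar2 was below the median in pool J (1960 bases) and Ifnar1 in pool I (2146 bases). Ifngr2, Jak2, Irf2 and Stat3 were above it in both pools. Stat3 passed with 2138 bases and measured 1543 without merging. In pool J the class II gene H2-Ab1 was above the median, with 2107 bases. In enrichment 12 members were above the median of all marked genes, namely 10 signalling and 2 class I genes. No member had a domain among the widest 5% of marked genes, which exceeded 5166 bases.

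**Figure D1:**
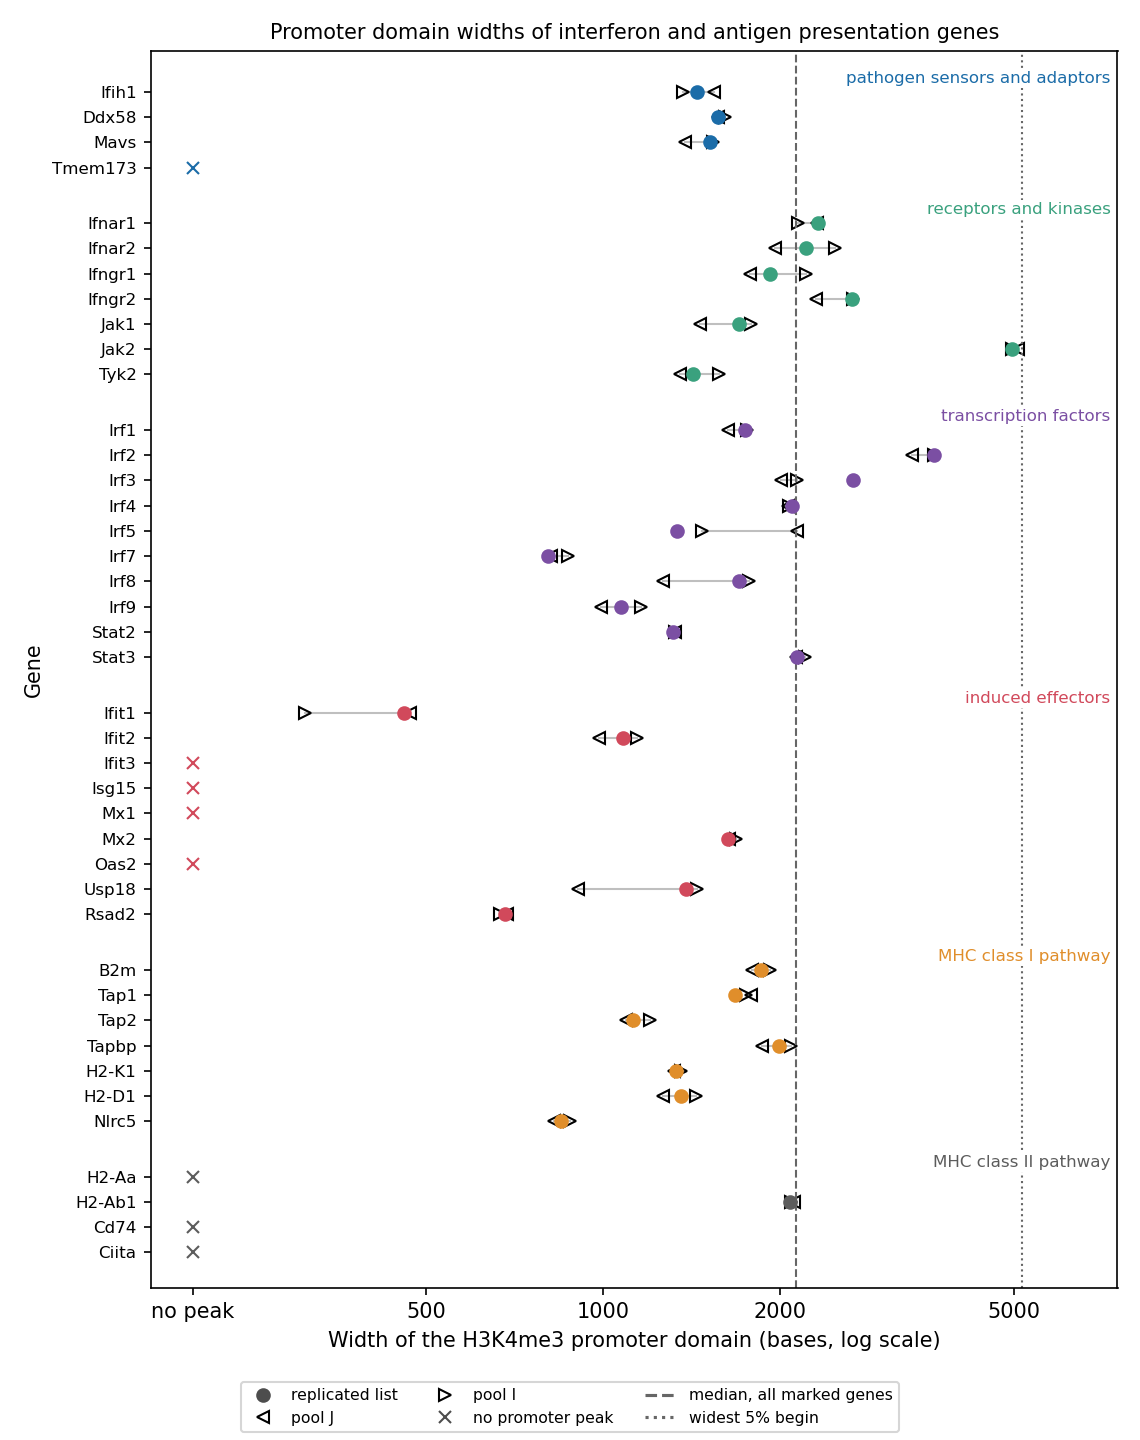
Width of the H3K4me3 promoter domain of each of the 41 members in bases on a log axis, grouped by role, with filled circles for the replicated list and open triangles for pool J and pool I. Crosses stand for the 8 members without a promoter peak, the dashed line for the median of all marked genes (2124 bases) and the dotted line for the lower bound of the widest 5%. The effectors Ifit1 and Rsad2 have the narrowest domains, and the kinase gene Jak2 the widest.

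Among the sensors, the cytosolic RNA receptors and their adaptor had peaks of moderate rank. In what follows, values without a list name stand in the order pool J, pool I and replicated list. Ifih1, which encodes the RNA sensor MDA5, had domains of 1540, 1364 and 1441 bases and enrichments of 10.3, 15.4 and 14.6. Ddx58, the gene of the RNA sensor RIG-I, had 1567, 1610 and 1568 bases and enrichments of 14.6, 15.8 and 15.7. Mavs, the mitochondrial adaptor gene downstream of both, had 1379, 1539 and 1519 bases and enrichments of 11.6, 12.5 and 12.4. These 3 lay between percentiles 17.9 and 27.5 of enrichment in the replicated list, below the median of marked genes. Tmem173, which encodes the adaptor STING of DNA sensing, had no peak in its windows in any of the lists, and the nearest replicated peak lay 5298 bases away with an enrichment of 5.79.

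Receptors and kinases were the most enriched role, with a median at percentile 78.8. Ifnar2, a chain of the type I interferon receptor, had enrichments of 30.9, 32.9 and 32.7, the last at percentile 97.5, over a replicated domain of 2212 bases. Its partner chain gene Ifnar1 had 19.2, 20.75 and 21.3, at percentile 52.4 and over 2316 bases. The interferon-gamma receptor genes were both high, Ifngr2 with 26.2, 28.3 and 29.8 (percentile 91.1, 2646 bases) and Ifngr1 with 24.2, 28.3 and 26.6 (percentile 78.8, 1923 bases). In each of the 3 lists Ifnar2 ranked above the other 3 receptor genes and Ifnar1 ranked lowest of them. None of the 4 receptor domains held a start of another protein-coding gene.

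The kinase genes differed more in width than the receptors. Jak2 had the widest domain of all members, with 5078, 4951 and 4966 bases, a mean of 5014.5 ± 89.8 bases over the pools (SD, n = 2). It reached 1459 bases upstream and 3506 bases downstream of its most upstream start, and its enrichment was 29.9, 26.6 and 29.1. Jak1 had 1460, 1785 and 1699 bases with enrichments of 21.0, 20.3 and 17.5. Tyk2, which serves the type I receptor with Jak1, had 1348, 1575 and 1421 bases with enrichments of 23.2, 21.0 and 22.4. The Jak2 domain was wider than both of these in each pool.

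The transcription factor genes were all marked but spanned nearly the whole range of enrichment. Stat3, the gene of a factor used by many cytokines, had enrichments of 33.6, 30.02 and 32.1, at percentile 96.4. Irf2, which encodes an IRF with repressor activity at ISREs, had 28.7, 23.7 and 28.4, at percentile 86.5, over 3353, 3660 and 3648 bases. The replicated Irf2 domain also held a start of Gm16675, a gene not annotated as protein-coding. Stat2, a subunit of the complex formed after type I signalling, had 21.997, 21.8 and 22.2, at percentile 57.3. Its complex partner gene Irf9 was at the other end, with 7.68, 6.5 and 7.73 and percentile 9.71. The 2 subunits of that complex thus differed in the same direction in both pools.

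The remaining IRF genes, apart from Irf3, lay below percentile 30 of enrichment in the replicated list. In pools J and I, Irf1 stood at percentiles 31.6 and 35.7, and Irf7 at 11.4 and 32.9. Irf1, the first IRF described and an interferon-gamma target, had 16.8, 17.9 and 16.2 at percentile 29.5. Irf7, an amplifier of type I interferon production, had 9.49, 17.3 and 13.8 at percentile 21.4 and the narrowest domain among the factors, with 814, 872 and 805 bases. Irf8, a factor of myeloid cells and microglia, had 9.65, 11.3 and 10.7 at percentile 14.3. Irf5, active in macrophages, had 7.22, 11.3 and 9.7 at percentile 12.8. Irf4, a factor of lymphocytes, had 5.16, 7.23 and 6.18 at percentile 7.37, the lowest of the 10 in the replicated list and in pool J, whereas Irf9 was lowest in pool I. Irf3, the constitutively present factor that sensors activate, stood apart with 19.8, 22.4 and 21.2 at percentile 51.9. Its domain also held a start of Bcl2l12, so that the mark could not be assigned to Irf3 alone, and it measured 2003 and 2133 bases in the pools and 2656 in the replicated list, where a further weak peak joined it.

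Induced effectors split into 5 marked and 4 unmarked genes, and the marked ones were weak or narrow. Ifit2, an RNA-binding antiviral protein gene, had 985, 1143 and 1081 bases, with enrichments of 12.99, 17.3 and 15.6. Usp18, which encodes the protease that removes the ubiquitin-like protein ISG15 from its targets, had 906, 1445 and 1385 bases with enrichments of 15.3, 16.2 and 16.0. These effectors, at percentiles 27.2 and 28.6, were the highest of the role and lay below the median of marked genes. Both have promoters of intermediate CpG content, with observed-to-expected ratios of 0.31 for Ifit2 and 0.49 for Usp18.

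The other marked effectors lay near the bottom of the list. Ifit1 had 468, 311 and 458 bases with enrichments of 4.54, 4.18 and 4.26, at percentile 3.61. Its pools averaged 389.5 ± 111 bases (SD, n = 2), and its peak also met a window of the paralog Ifit1bl2. Rsad2, the gene of the antiviral enzyme viperin, had 685, 667 and 679 bases with enrichments of 5.77, 3.23 and 4.26, also at percentile 3.61. Mx2, an antiviral GTPase gene, had 1636, 1684 and 1629 bases with enrichments of 4.74, 6.46 and 5.69, at percentile 6.49. Its domain joined 2 peaks in each list, and the wider of the replicated ones alone measured 847 bases. Peaks at these 3 genes were called in each pool separately. With peaks of a −log10 q of at least 10 only, Ifit1 and Rsad2 were no longer marked, and 62.3% of all protein-coding genes remained so.

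No peak met a window of Ifit3, Isg15, Mx1 or Oas2 in any of the lists. Isg15, the gene of the ubiquitin-like modifier, had its nearest replicated peak 1873 bases from its start, with an enrichment of 19.7, and a start of the gene AW011738 lay within 1000 bases of that peak. The nearest peak to Ifit3 was a weak one (3.85) at its paralog Ifit3b, 23893 bases away. Ifit3b had a promoter peak in the pool J list but none in that of pool I. For the 2′-5′-oligoadenylate synthetase gene Oas2 the nearest peak was 23325 bases away at Dtx1. For the GTPase gene Mx1 it was 71767 bases away, with an enrichment of 5.69. Ifit1, Ifit2 and Ifit3 lie in a cluster on chromosome 19, where Ifit2 had the highest enrichment, Ifit1 a weak peak and Ifit3 none. The order was the same in both pools. How the authors assigned reads among paralogs is not given in the sources used here, which limits the reading of Ifit3 as unmarked.

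**Figure D2:**
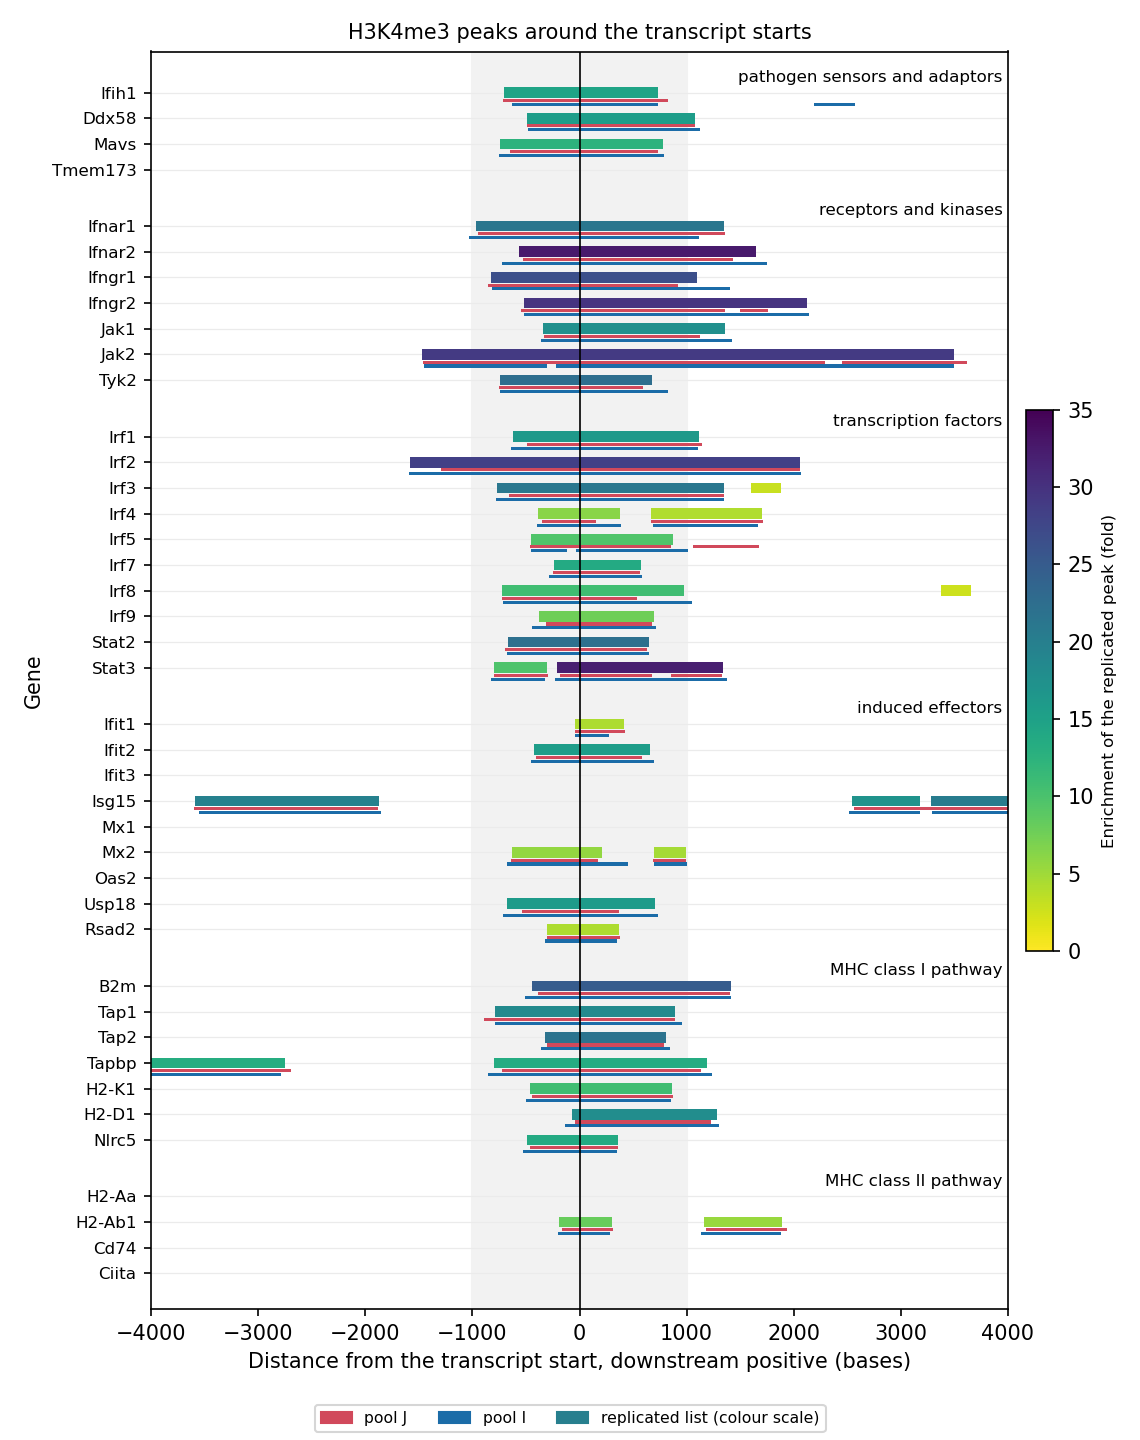
Peaks within 4000 bases of the transcript start of each member, in bases with downstream positive, where the start is the one nearest the highest promoter peak or, for unmarked members, the 5′-most start. Thick bars are replicated peaks coloured by enrichment, thin bars pool J and pool I peaks, and the shaded band is the window of 1000 bases either side. The peaks of Ifnar2, Ifngr2 and Jak2 are dark and run further downstream than upstream, the peaks of Ifit1 and Rsad2 are short and pale, and the nearest peaks to Isg15 lie outside the band.

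The class I pathway was marked at each of its members, with enrichment from 10.7 to 24.9. B2m, which encodes the invariant light chain beta-2 microglobulin, had enrichments of 24.3, 24.1 and 24.9, at percentile 71.1, over 1794, 1920 and 1853 bases. The peptide transporter genes followed. Tap2 had 19.6, 22.7 and 21.7 at percentile 54.7, and Tap1 18.1, 15.7 and 18.4 at percentile 38.1. The Tap1 domain also covered the start of the immunoproteasome gene Psmb9, and the mark there could not be assigned to 1 of them. Counting only peaks that reach no window of another protein-coding gene, Irf3, Ifit1 and Tap1 were not marked and 30 members were, against 53% of all protein-coding genes. Of the heavy chain genes, H2-D1 had 16.9, 18.2 and 17.95 (percentile 36.3), above Tap1 in pool I and below it in pool J and the replicated list, and H2-K1 11.3, 11.2 and 10.7 (percentile 14.3). H2 genes have near-identical copies, and the assignment of reads among copies by the authors is not given in the sources used here, so the order of these 2 is uncertain. Nlrc5, the transactivator of class I genes, had 10.7, 14.1 and 13.8 at percentile 21.4 and the narrowest domain of the pathway, with 824, 876 and 848 bases.

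Tapbp, the gene of the peptide loading factor tapasin, had 2 promoter domains. At its 5′-most start a peak of 1559 bases (17:33915518-33917076) had an enrichment of 13.4. A wider domain of 1991 bases (17:33919026-33921016), also at 13.4, covered starts between 3433 and 4629 bases further downstream. The 5′ peak also met a window of Zbtb22, and the wider domain held a start of Gm19412, a gene not annotated as protein-coding. Over its starts the widest domain of Tapbp was 1864, 2086 and 1991 bases, and its highest enrichment 17.1, 16 and 13.4.

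Class II genes were unmarked apart from H2-Ab1. H2-Ab1, the beta chain gene of the I-A molecule, had enrichments of 6.41, 8.0 and 8.14, at percentile 10.5. The peak (17:34263141-34263634, 494 bases) lay over annotated internal starts 5520 to 5642 bases downstream of the 5′-most start, and no peak met the window of that 5′-most start. A domain of 2081 bases arose by joining it with a further peak downstream, and in the pools it measured 2107 and 2088 bases. The alpha chain gene H2-Aa, the invariant chain gene Cd74 and the class II transactivator gene Ciita had no promoter peak in any of the lists. Their nearest replicated peaks lay 8485, 26980 and 32126 bases away, and the last 2 of these were near starts of Rps14 and Tvp23a.

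The unmarked members all had promoters poor in CpG dinucleotides. The observed-to-expected CpG ratio was computed within 1000 bases of the 5′-most start, and all genes were ranked in 10 deciles of it. The 29 members in deciles 4 to 10 were all marked, against 87.5% of the protein-coding genes in those deciles. One of them, H2-Ab1 (ratio 0.257), was marked only at internal starts and not at the 5′-most start used for its ratio. Of the 12 members in deciles 1 to 3, 4 were marked, namely Ifit1, Mx2, Rsad2 and Tap2, against 13.1% of the genes there. The 8 unmarked members had a median ratio of 0.176, and the marked members one of 0.509.

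If each member were marked as often as genes of its own decile, 26.8 of the 41 would be, where 33 were observed. The corresponding values were 17.9 of 21 for sensing and signalling (20 observed), 5.82 of 7 for class I (7 observed), 2.14 of 9 for effectors (5 observed) and 0.948 of 4 for class II (1 observed). These values are descriptions with no test. CpG-poor members were not uniformly weak. Tap2, with a ratio of 0.22, stood at percentile 54.7 of enrichment, above the median of 22.7 of the marked genes in its decile, whereas Ifit1, Mx2 and Rsad2 stood between 3.61 and 6.49. The peak of Tap2 covered starts downstream of the 5′-most one, and the window used for the ratio need not be the marked one. Low enrichment also occurred at CpG-rich promoters, as at Irf5 (ratio 0.73), H2-K1 (0.70) and Irf8 (0.66).

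**Figure D3:**
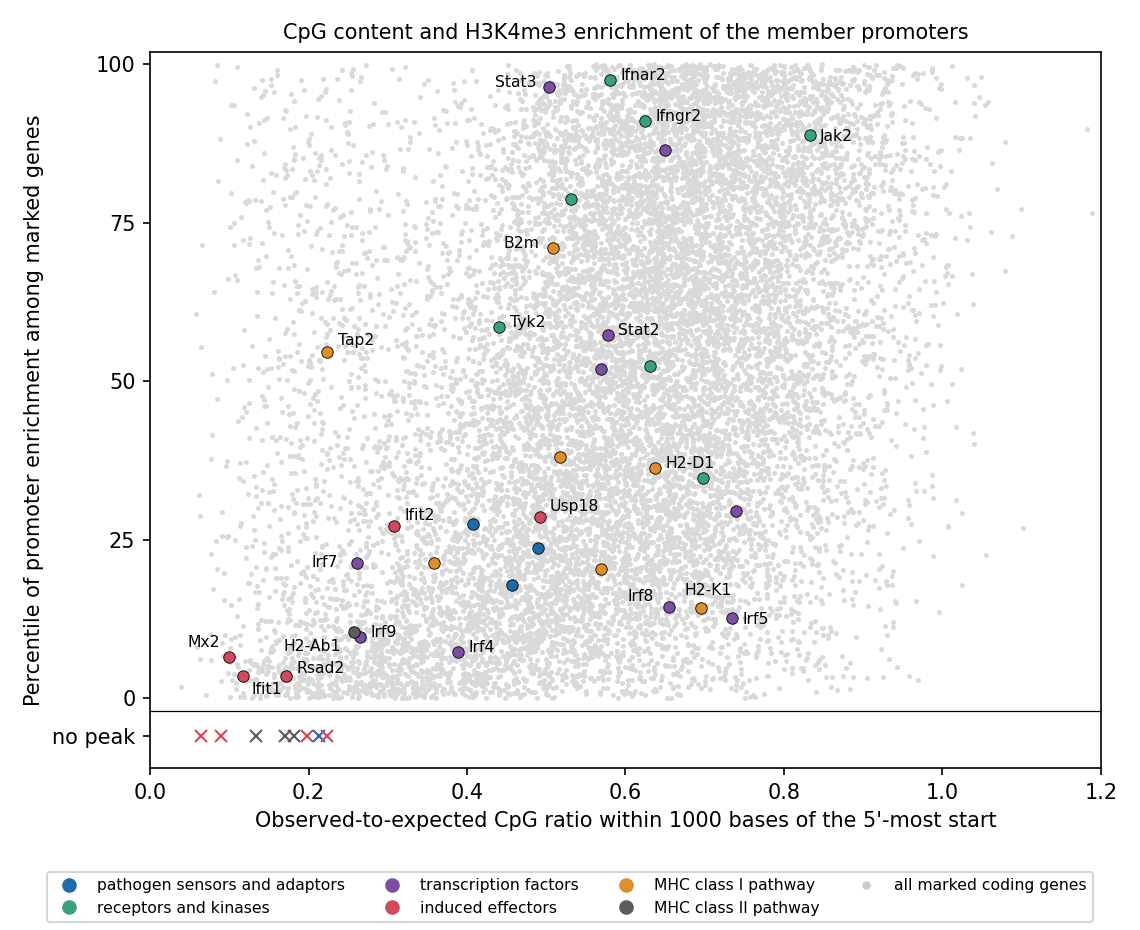
Percentile of promoter enrichment among marked genes (vertical axis) against the observed-to-expected CpG ratio (horizontal axis) for the members, coloured by role, over all marked protein-coding genes in grey. Crosses at the bottom are the 8 unmarked members, all at a ratio under 0.25. Tap2 stands high for its CpG ratio, and Irf5, Irf8 and H2-K1 stand low for theirs.

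Domains lay mainly downstream of the start, as they did for genes in general. Measured from the most upstream start inside the domain, 32 of the 33 marked members extended further downstream, with medians of 448 bases upstream and 1006 downstream, against 85.2% of 13792 marked protein-coding genes, with medians of 615 and 1367. The exception was Nlrc5, with 490 bases upstream and 357 downstream. Its domain also held a start of 9330175E14Rik, a gene not annotated as protein-coding. Between the pools the median ratio of domain width, pool I to pool J, was 1.07 for the members and 1.07 for all genes marked in both. Ratios of members ran from 0.665 at Ifit1 to 1.59 at Usp18, and these were the 2 of 33 that differed by 1.5-fold or more, a share close to that of all genes, 95.2% of which lay under 1.5-fold.

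Genes of the same pathways beyond the 41 members were counted in the same way. None of 20 interferon genes, type I, II and III, was marked in any of the lists, and their CpG deciles would give 2.51. Further sensors and their signalling proteins were marked in 14 of 18 cases (14 and 13 in the pools), where the CpG deciles would give 10.2. Highest were the kinase gene Tbk1 (25.1), the RNA editing enzyme gene Adar (24.5) and Traf3 (23.8), which also had the widest domain with 4409 bases, followed by Myd88 with 3406, shared with Acaa1a, and Adar with 2866. Tlr7, Tlr9, Zbp1 and Aim2 were unmarked. Further receptors, kinases and factors were marked in 11 of 12 cases (10.04 by CpG decile), with the NF-kappa-B subunit gene Rela at 33.3, the IRF2-binding protein gene Irf2bp1 at 25.7 and Nfkb1 at 23.6. Irf2bp2 had the widest domain of the list, with 8718, 12436 and 9417 bases.

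Negative regulators were marked in 9 of 10 cases (7.30 by CpG decile), with a median enrichment percentile of 69.9. Pias1, an inhibitor of STAT proteins, reached 37.4, the phosphatase gene Ptpn2 30.2 and Trim24 27.1, and Ptpn6, a phosphatase of blood cells, was unmarked. The widest domains were those of the phosphatase gene Ptpn11 (3826 bases, where the pools gave 1806 and 1991), Socs3 (3088) and Socs1 (2546), the last 2 of them feedback inhibitors of Janus kinases.

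Further induced effectors had narrow domains of low enrichment for the most part. Of 46 genes 29 were marked in the replicated list, and 26 and 28 in the lists of pools J and I, where the CpG deciles would give 15.8. Their domains had a median of 1086 bases, and their median enrichment percentile was 9.34. Herc6, a ligase for ISG15, was highest at 27.1 with 2123 bases (1208 and 2212 in the pools). The GTPase genes Igtp and Irgm2 followed at 23.3 each with a peak in common, and the widest domains were those of Irgm1 (2606 bases) and Rtp4 (2132, shared with Masp1). The 17 unmarked genes were absent from both single-pool lists as well, and among them were Oas3, Ifi44, Iigp1 and Cxcl9.

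Further class I genes were marked in 19 of 20 cases and further class II genes in 5 of 11, where the CpG deciles would give 15.9 and 5.60. The class I list was led by chaperones with general roles, Calr at 37.4, Pdia3 at 26.7 and Canx at 21.6, which also had the widest domains, and H2-Q1 was unmarked. In the class II list the marked genes were those of the widely expressed RFX factor, Rfxap (29.1), Rfx5 (26.8) and Rfxank (23.2), together with H2-DMa (26.6) and H2-Eb1 (9.03). The H2-DMa domain of 7902 bases also covered a start of Brd2, a gene of a general transcription regulator, and the Rfxank domain starts of Borcs8 and Mef2b. Among the H2-A and H2-E chain genes examined, H2-Ab1 and H2-Eb1 were thus marked and H2-Aa and H2-Eb2 were not. The marked ones lay below percentile 12 of enrichment. The I-E alpha chain gene was not in the lists, so this is no complete comparison of alpha and beta chains.

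**Figure D4:**
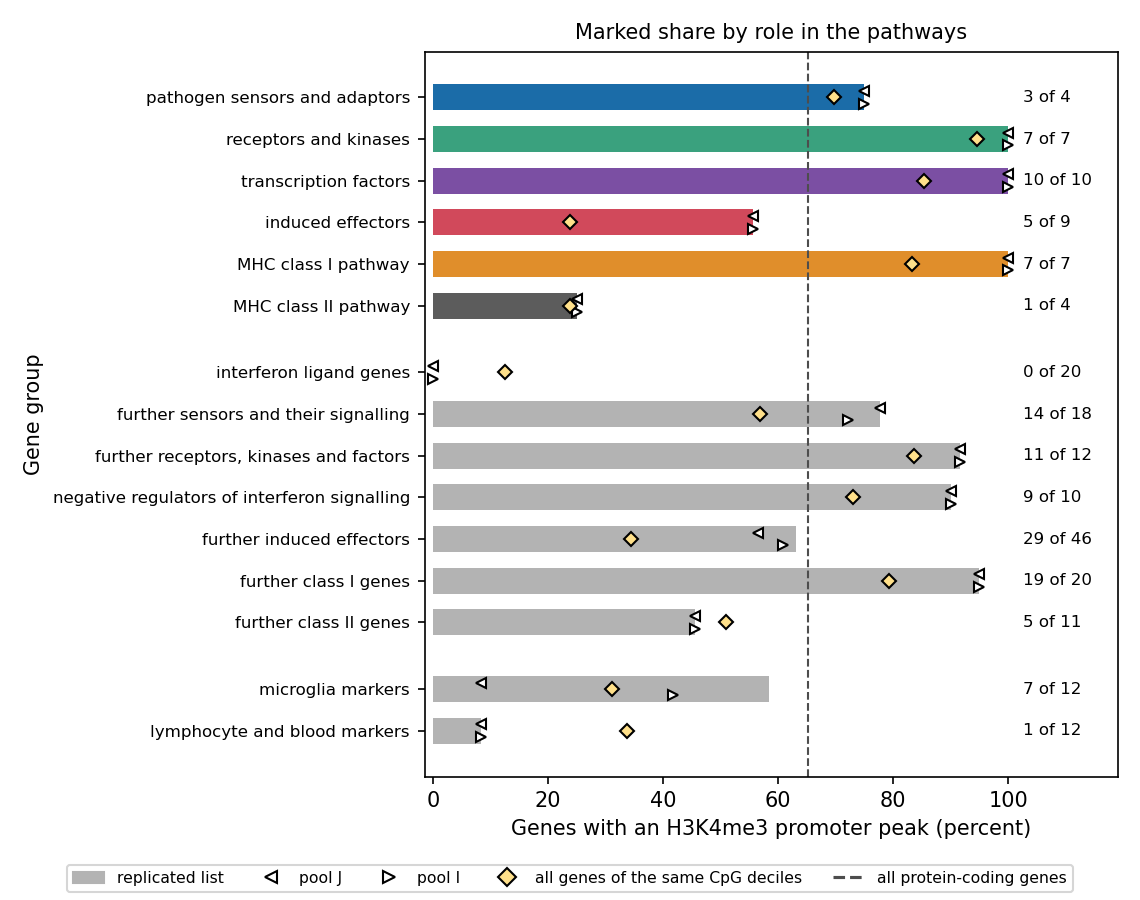
Percent of genes with a promoter peak for each role of the members (coloured bars), for the further pathway lists and for marker lists of microglia and of lymphocytes and blood (grey bars). Triangles are the single-pool lists, diamonds the share among all genes of the same CpG deciles, and the dashed line the 65.2% of all protein-coding genes; numbers at the right are marked genes of all genes in the group. Effector and class II groups lie below the dashed line, and effector groups above their diamonds.

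Markers of cortical cell types were checked with the same windows. Cortical neuron markers were marked in 9 of 9 cases, where the CpG deciles would give 5.86. Astrocyte, oligodendrocyte and endothelial markers were marked in 5 of 6 each (3.42, 2.45 and 3.16 by CpG decile). In the pool I list oligodendrocyte and endothelial markers were marked in 6 of 6 cases each. Lymphocyte and blood markers were marked in 1 of 12 (Flt3, at 15.3, where the CpG deciles would give 4.05). Microglia markers were marked in 7 of 12 cases in the replicated list, but in 1 case in the pool J list and 5 in that of pool I (3.72 by CpG decile), with a median enrichment of 3.13 and a range of 2.72 to 19.8. Of the defining microglia genes, no replicated peak met C1qa, C1qc or P2ry12, and Cx3cr1 and Tmem119 had one in neither single-pool list. Among members known from microglia and other myeloid cells, Irf8, Irf5 and H2-Ab1 were called in both pools, and H2-Aa, Cd74 and Ciita in neither. Irf8, Irf5 and H2-Ab1 stood in CpG deciles 8, 9 and 4, where 97.6%, 98.1% and 47.2% of genes were marked. The part of cell composition in the values of these members was not tested.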

How the data were processed

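H3K4me3 was profiled in 4 libraries, 2 technical replicates of each of 2 pools, and a sample's group was its pool, as labelled. The authors deposited peak lists on mm10 for either pool alone, for the pooled reads, and a list termed replicated that draws on both pools, per the labels and the accompanying text files. Each pool's libraries entered 1 list together. Aligner, peak caller and read numbers were not given in the sources used here, so depth is unknown. A single donor record covers all 4 libraries and separate animals are not stated, so differences between pools may be technical. The deposited enrichment is a ratio, taken as fold over a control, and served only to describe and rank peaks within a list. The −log10 q that the authors give for each peak served as a filter in alternatives.

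Gene models were GENCODE release M21. Peaks had to overlap a window by at least 1 base, and positions are counted from 1. Motifs were searched in RefSeq promoters of GRCm38.p6, and all 32851 of them matched the mm10 sequence letter for letter. Scripts ran in Python 3.11.15 with pandas 2.3.3, numpy 2.4.6 and matplotlib 3.10.9. On simulated peaks placed at 200 genes, 200 were recovered, and 0 of 100 genes with a peak outside the window were called.

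The members, roles, pathway lists and markers were chosen with earlier results of these data known. All 41 members are accounted for. Of each pathway list the text names the 3 marked genes of highest enrichment, the 3 of widest domain, and the genes against its majority where 5 or fewer. Among the genes against a majority, 1 is not reported here. The unmarked effectors named, the Ifit2 promoter without a match to the ISRE pattern searched, and the microglia genes were chosen after their values were seen. Alternatives changed the list of peaks, the window, the starts used, the q filter, the overlap, the merging distance, the sharing of peaks and the roles of interferon-induced signalling genes, and leaving out Mx2 was added after seeing the data.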

Additional observations from a re-analysis of the deposited data

How the results depend on the processing

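The count of marked members was 33 in each of the 3 other lists and with windows of 500 bases (64.7% of all protein-coding genes). It was also 33 with a −log10 q of at least 5 (64%) and with an overlap of at least 100 bases (65.1%). Either other merging distance left the count at 33 as well (65.2%). The same genes were marked in all of these settings. Most peaks of the replicated list are also in that of pooled reads, so the latter is no independent check. Windows of 2500 bases added Isg15 (34, against 66.2% of all protein-coding genes). The 5′-most start alone lost H2-Ab1 (32, with 0 class II genes, against 61.6%). A −log10 q of at least 10 lost Ifit1 and Rsad2 (31, with 3 effectors, against 62.3%). Peaks that reach no window of another protein-coding gene lost Irf3, Ifit1 and Tap1 (30, against 53%). With interferon-induced sensors and factors counted among the effectors, 11 of 15 effectors were marked, against 65.2% of all protein-coding genes. The median width of marked effectors was then 1314 bases, and it was 906 in pool J, 847 without merging and 880 without Mx2. That of the signalling genes was 1777 bases in pool I, 1633.5 without merging, 1831 with merging up to 3000 bases and 2116.5 after that regrouping. The median enrichment percentile of effectors rests on 5 genes and was 5.23 in pool J, 17.01 with windows of 2500 bases, 4.79 when −log10 q had to reach 5 and 23.9 when it had to reach 10, 19.8 with unshared peaks, 23.7 after regrouping and 15.4 without Mx2. That of signalling genes was 48.7 in pool I, 38.8 with unshared peaks and 55.5 after regrouping, and that of class I genes 27.8 in pool I. The cause of these shifts was not tested beyond the change of genes or peaks that each setting makes. In each of these settings the effector median stayed below that of the signalling genes for width and for enrichment percentile. Of 390 widths of single members under alternatives, 350 differed from the main width by less than the SD between pools, and 40 did not. Many of the 350 were unchanged, because the setting kept the same peaks. The single-pool lists, which set that SD, were themselves among the alternatives. These counts are therefore no measure of how robust the widths are. No paired analysis was possible because both technical libraries of a pool entered 1 list. With 1 list per pool and unknown depth, a missing weak peak cannot be told from one below detection.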

Other observations

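Some members had replicated peaks inside the gene but outside all promoter windows. Stat3 had one of 561 bases with an enrichment of 6.61, whose highest point lay 7885 bases downstream of the 5′-most start and which was present in both single-pool lists. In Jak2 a peak of 458 bases (4.45) lay 19553 bases downstream and was in the pool I list but not in that of pool J. In Irf8 a peak of 277 bases (2.72) lay 3533 bases downstream and was in neither single-pool list. At the 3′ end of Tapbp a peak of 3117 bases (18.4) lay at a start of the neighbouring gene Rgl2. At Irf2 the highest point of the promoter peak lay 1161 bases from the nearest annotated start of Irf2 itself.

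The CCAAT box, a common promoter element searched as CCAAT on both strands, was found in 18 of the 31 members with a promoter, against 42.1% of the protein-coding genes with a promoter there. Among the marked protein-coding genes 42.4% held it and among the unmarked ones 41.3%. The ISRE was found in 3.54% of marked and 5.01% of unmarked protein-coding genes, and the GAS in 7.95% and 11.2%.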
